A study of Mus musculus with 18 samples.

Results

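Acta1, Actc1 and Pcp4 are 3 of the 29214 genes in the bulk table of a mouse urinary bladder atlas. Acta1 encodes the alpha-actin of skeletal muscle and Actc1 the alpha-actin of heart muscle. Pcp4 encodes Purkinje cell protein 4, a small calmodulin-binding protein best known from neurons. The genes were chosen from earlier results of these data: their levels in intact against dissociated bladder, in smooth muscle nuclei against other nuclei, in detrusor cells and in spatial spots, and their company with Myh11, Des, Ckm and Myh4. Those values are therefore given as descriptions with no test. Only the comparisons by age, which the choice did not use, carry a test for these genes.

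Actins form the thin filaments on which myosin pulls. The smooth muscle forms, Acta2 and Actg2, dominate the detrusor, the muscular coat of the bladder, while Actb and Actg1 are found in nearly every cell. Acta1 and Actc1 are named for striated muscle, but adult smooth muscle can carry transcripts of them. Many muscle genes carry CArG boxes near their start, where serum response factor binds together with the co-activator myocardin. In smooth muscle, calcium-loaded calmodulin activates myosin light chain kinase (Mylk), and Pcp4 changes how calmodulin handles calcium. Myh11 is the smooth muscle myosin heavy chain and Des is desmin, shared by all muscle types. Ckm (muscle creatine kinase) and Myh4 (a fast myosin heavy chain) are commonly used as skeletal muscle genes.

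The mice were C57BL/6, and the 18 libraries form 11 groups. Cells of whole bladder came from 3 males of 22 months, 3 males of 3 months, 2 females with 2 males of 12 months (2 libraries) and 2 females with 2 males of 24 months. Nuclei of whole bladder came from 2 females with 2 males of 12 months. A cell library of the detrusor layer alone came from 3 females of 14 months, and a detrusor-enriched whole-bladder cell library from 2 females with 2 males of 14 months. Frozen sections on Visium slides, where RNA is caught on barcoded spots, were made from males of 22 months (2 sections) and 14 months (2 sections), each labelled with 4 males. Bulk libraries were made from intact bladder (3 libraries) and dissociated bladder (3 libraries) of 12-month females, each labelled with 3 females. No treatment or genetic change was labelled. Each cell or nuclei library pools several mice, so cells in it are not replicates, and the nuclei and both detrusor groups are single libraries. The labels do not say whether libraries of one group came from separate mice, so p-values measure the spread between libraries.

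Bulk libraries held 23083752 to 68760791 reads. Deposited cell and nuclei tables held 5197910 to 55374101 unique molecular identifiers (UMIs, one per captured molecule) each, and sections 21976101 to 32021223. Among kept barcodes, 1390 of 3375 nuclei fell in clusters with smooth muscle markers, against 218 of 5412 detrusor-only cells, which were mostly fibroblast-like (3291 cells), and 167 of 5190 detrusor-enriched cells. The 167 and the 218 are not like sets. The 167 include a cluster of 111 cells led by Pln, while a Pln-led detrusor-only cluster was counted as pericyte-like. Summed pericyte genes stood at 2352 CPM in the 167 cells and 280.2 CPM in the 218. Whole-bladder cells had named smooth-muscle-like clusters in 2 libraries, of 13 and 20 cells. Between cell or nuclei libraries, at most 64 of 6378 barcodes were shared (both male libraries), and 15 of 6163 between the detrusor libraries. Levels are CPM, a gene's count divided by the total of its library or group and multiplied by 1000000, with mitochondrially encoded genes left out of UMI totals. Intervals are exact 95% intervals and cover counting error only.

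The 250 bases before the start that the RefSeq promoter table gives for each gene are shown first, since the actin genes of muscle are known for CArG boxes there; Acta2 is given for comparison. They are RefSeq sequences on GRCm38.p6, written 5′ to 3′ on the strand of the gene, with CArG and CArG-like boxes in capitals. A CArG box is CC and GG around a run made of A and T; a CArG-like box may hold 1 G or C in that run. Both strands were searched, and every CArG box also counts as a CArG-like box. Acta1 lies at chr8:123891758-123894775, Actc1 at chr2:114047282-114052875 and Pcp4 at chr16:96467606-96525793. The windows were chr8:123894776-123895025 (minus strand), chr2:114052876-114053125 (minus strand), chr16:96467356-96467605 (plus strand) and chr19:34255374-34255623 (minus strand). RefSeq also places Acta2 at chr19:34240336-34255585, so its promoter-table start lies inside the annotated gene and most of that window does too.
Acta1: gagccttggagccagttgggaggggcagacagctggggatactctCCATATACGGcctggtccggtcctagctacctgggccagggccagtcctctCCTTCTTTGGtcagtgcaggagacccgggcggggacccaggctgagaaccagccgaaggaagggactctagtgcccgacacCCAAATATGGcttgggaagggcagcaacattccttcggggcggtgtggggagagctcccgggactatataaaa
Actc1: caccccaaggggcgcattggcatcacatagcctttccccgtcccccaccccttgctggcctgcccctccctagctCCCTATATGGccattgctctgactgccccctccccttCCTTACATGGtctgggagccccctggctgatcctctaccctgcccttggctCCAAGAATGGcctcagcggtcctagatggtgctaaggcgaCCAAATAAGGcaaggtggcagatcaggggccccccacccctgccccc
Pcp4: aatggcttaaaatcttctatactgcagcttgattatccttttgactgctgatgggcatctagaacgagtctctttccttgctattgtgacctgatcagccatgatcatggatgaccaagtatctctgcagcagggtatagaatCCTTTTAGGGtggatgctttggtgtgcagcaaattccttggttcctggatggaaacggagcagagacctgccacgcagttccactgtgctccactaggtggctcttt
Acta2: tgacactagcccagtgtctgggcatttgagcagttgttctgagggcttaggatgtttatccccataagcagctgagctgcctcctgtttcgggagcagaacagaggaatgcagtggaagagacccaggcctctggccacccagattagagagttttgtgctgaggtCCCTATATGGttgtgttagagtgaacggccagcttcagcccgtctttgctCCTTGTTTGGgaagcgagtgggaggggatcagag

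Acta1 held 1 CArG box, at -73 to -64 from the start, and CArG-like boxes beginning at -205 and -154. Actc1 held 1 CArG box, at -47 to -38, and CArG-like boxes beginning at -175, -138 and -87. Pcp4 held no CArG box in this window and 1 CArG-like box at -107 to -98. Acta2 held CArG-like boxes beginning at -84 and -34. A CArG box was found in 1.47% of 32841 RefSeq promoter windows of the same length and a CArG-like box in 8.59%. Acta1 also held an M-CAT motif (CATTCC, a site type of TEAD factors) at -46 to -41 and a TATA motif (TATAAA) at -7 to -2, which 12.6% and 12.4% of windows hold. The Ckm window held a CArG-like box at -178 to -169, and the Des window held neither kind. The window of Actg1, an actin of nearly every cell, held a CArG box at -90 to -81. The map of motif matches shows how both actin genes of striated muscle carry several boxes and Pcp4 a single one. A match describes letters in the window and was not tested for binding.

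**Figure D1:**
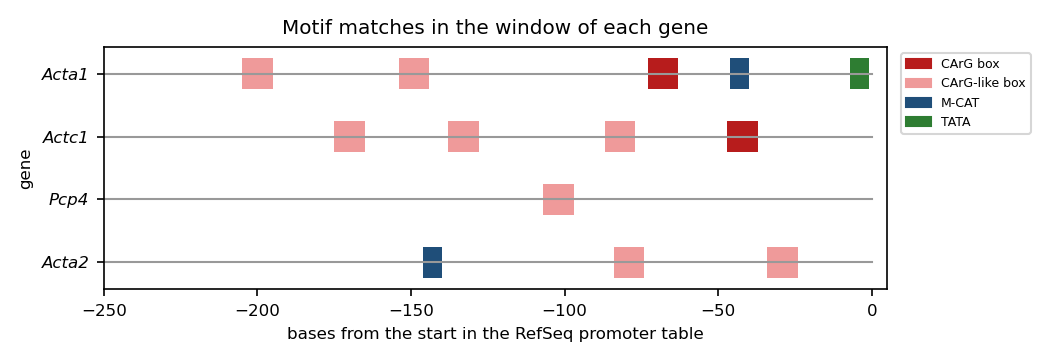
Positions of motif matches in the 250 bases before the start in the RefSeq promoter table (bases from that start) of Acta1, Actc1, Pcp4 and Acta2. Dark red bars are CArG boxes, light red CArG-like boxes, blue M-CAT and green TATA; Acta1 and Actc1 each have 1 dark red bar and Pcp4 has 1 light red bar.

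All 3 genes were abundant in intact bladder and scarce once the bladder had been dissociated. Acta1 stood at 574.0, 459.9 and 406.3 CPM in the intact libraries and at 16.6, 18.3 and 5.91 CPM in the dissociated ones. The groups were far apart, with means of 480.1 ± 85.7 and 13.6 ± 6.72 CPM (SD, n = 3 each), a 35.3-fold difference. Actc1 stood at 240.4, 183.9 and 190.0 CPM in intact and 5.87, 5.70 and 1.90 CPM in dissociated bladder. Its means were 204.8 ± 31.0 and 4.49 ± 2.24 CPM, 45.6-fold apart. Pcp4 stood at 34.7, 40.2 and 41.6 CPM in intact and 3.49, 2.74 and 2.44 CPM in dissociated bladder. Its means were 38.8 ± 3.66 and 2.89 ± 0.54 CPM, 13.4-fold apart. The third dissociated library was the lowest for each gene.

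Ordered by fitted log2 fold change from the most negative, Actc1 was in place 14, Acta1 in place 25 and Pcp4 in place 123 of 16538 genes tested. The fitted log2 fold changes were -5.39 (SE 0.35), -5.03 (SE 0.40) and -3.63 (SE 0.15). Over all genes, 31.3% passed the test as lower in dissociated bladder (adjusted p under 0.05, edgeR quasi-likelihood test), 27.9% passed as higher, and 42.3% had all 3 dissociated libraries below all 3 intact ones. The choice of the 3 genes used this contrast, so their place in it supports nothing. In bulk, fewer cells of a type and less RNA per cell cannot be told apart.

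Smooth muscle genes fell with them. All 11 genes of a smooth muscle list, Myh11 and Des among them, had lower fitted levels in dissociated bladder. Their log2 fold changes ran from -4.36 to -3.04 (median -3.79, against -0.03 over all genes tested). The choice of the 3 members also looked at Myh11, Des and Ckm, so no p is given for these. The fitted log2 fold change was -3.90 for Myh11 and -4.03 for Des, and Actg2 fell by 4.36 on the log2 scale (adjusted p = 3.48e-06, edgeR). Actg1 rose by 1.53 (adjusted p = 0.000145), from 391.7 ± 40.4 to 1049 ± 195 CPM, and Actb fell by 0.52 (adjusted p = 0.00536). All 16 genes of a list of muscle actin partners also fell (median -2.51). Among them were Synm (-4.02), Ldb3 (-3.93) and Lmod1 (-3.79), which take part in building filaments and their anchors.

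Of a list of 16 calmodulin pathway genes, 9 fell and 0 rose (median -0.57). The largest falls were those of Cnn1 (-4.10), Mylk (-3.57) and Cald1 (-2.50), all of them contractile regulators of smooth muscle. The lists overlap, so these are not separate results. Cnn1 and Mylk are also in the smooth muscle list, Cald1 is also an actin partner, and Lmod1 is in both of those lists. Of 11 tested regulators of muscle genes, 6 fell and 3 rose (median -0.26). Myocd, which encodes myocardin, fell by 3.32 on the log2 scale (adjusted p = 4.03e-06, edgeR), from 89.9 ± 14.5 to 8.36 ± 1.33 CPM. Markers of other cell types moved in both directions: all 8 fibroblast genes rose, 5 of 8 pericyte genes fell and 2 rose, and 4 of 8 tested neuron genes rose and 1 fell. Of 6 adipocyte genes, 5 fell (median -4.79). These counts stand against 31.3% of all genes lower and 27.9% higher. Their part in the fall of Acta1, Actc1 and Pcp4 was not tested.

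Of 16 skeletal muscle genes listed, 11 could be tested. Among these, 3 fell and 2 rose (median 0.34), no more than the shares of all genes give. The 3 include Ckm, which the choice of the members looked at. The list's summed level was 155.2 to 175.0 CPM in intact and 50.7 to 56.5 CPM in dissociated bladder. Ckm stood at 108.1, 114.0 and 114.6 CPM in intact and 6.87, 4.37 and 2.31 CPM in dissociated bladder. It made up most of the intact sum, and its fitted log2 fold change was -4.51 (SE 0.30). Myh2 and Casq1 were the other genes that fell, by 4.88 and 1.32, and were named after their values were seen. Tnni2 rose by 0.59 (adjusted p = 0.0408) and Tnnt3 by 0.36 (adjusted p = 0.0148). Myh4 was too low to test, with 5, 2 and 3 reads in the intact libraries and 1, 0 and 0 in the dissociated ones. Of 12 cardiac genes, 6 could be tested; 2 fell and 2 rose, and the summed level went from 350.6 to 464.4 CPM in intact to 28.1 to 40.3 CPM in dissociated bladder. Tnnt2, cardiac troponin T, held most of it and fell by 3.84 (adjusted p = 4.97e-06), from 376.1 ± 60.9 to 24.4 ± 5.24 CPM.

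**Figure D2:**
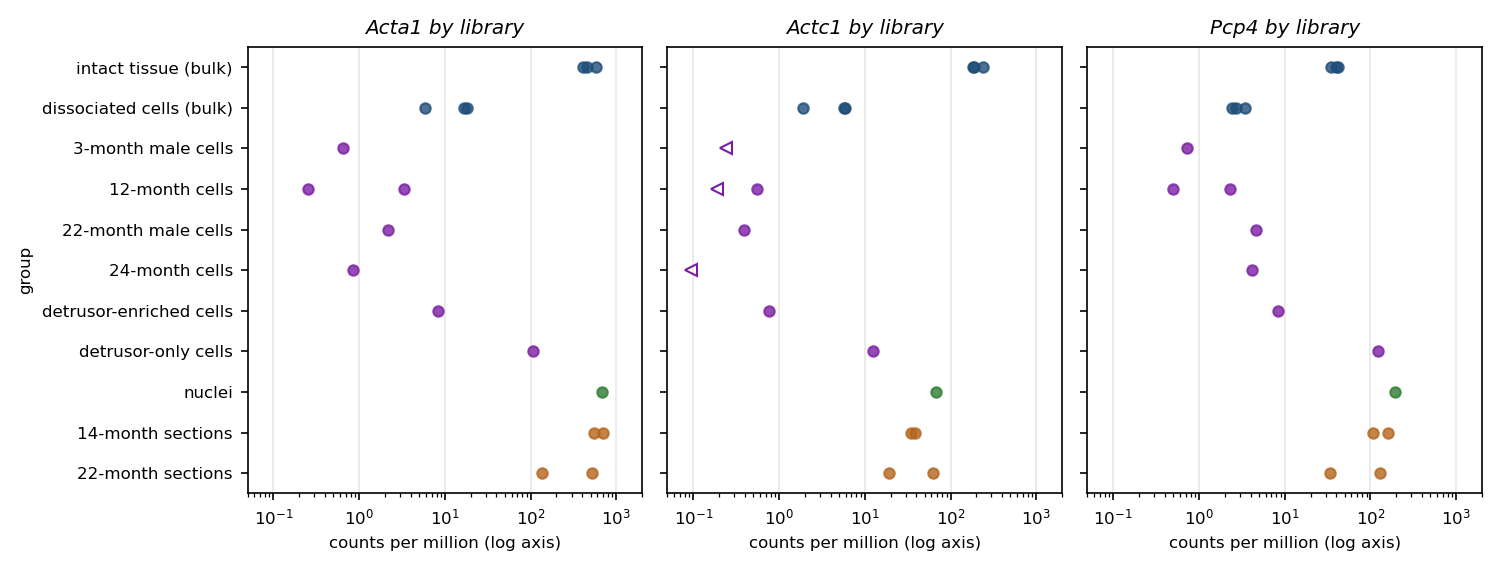
Level of each gene in all 18 libraries by group (CPM, log axis; each point is 1 library, blue bulk, purple cells, green nuclei, brown sections). Open triangles are libraries with 0 UMIs, drawn at the level of 3 counts; intact tissue, nuclei and sections sit to the right of dissociated and whole-bladder cells.

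The plot of levels by library shows the same order in the UMI data. Whole-bladder cells held 4 to 119 Acta1 UMIs per library (0.251 to 3.31 CPM) and 8 to 135 Pcp4 UMIs (0.502 to 4.64 CPM). Actc1 had 0 UMIs in 3 of 5 whole-bladder libraries, which allows up to 0.242, 0.188 and 0.0936 CPM at 3 counts a library, and 9 and 20 UMIs in the others. Nuclei stood at 681.1 CPM for Acta1, 68.1 CPM for Actc1 and 191.5 CPM for Pcp4. The detrusor-only library stood at 106.9, 12.4 and 120.9 CPM, and the detrusor-enriched library at 8.40, 0.756 and 8.25 CPM. Sections ran from 136.5 to 696.6 CPM for Acta1, 19.0 to 63.1 CPM for Actc1 and 33.8 to 160.3 CPM for Pcp4. Levels from bulk, droplet and spatial tables come from different chemistries and are set side by side only.

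In nuclei, the 3 genes were highest in the smooth-muscle-like clusters, which were built without them. Acta1 stood at 1451 CPM (1396 to 1506) in 1390 smooth-muscle-like nuclei and 225.0 CPM (208.7 to 242.3) in the other 1985. Actc1 stood at 139.3 against 25.9 CPM and Pcp4 at 354.8 against 94.8 CPM. The ratios were 6.45 (5.93 to 7.01), 5.37 (4.17 to 6.99) and 3.75 (3.26 to 4.31). With 1 library there is no replicate check. Median depth was alike, 1113.5 and 1113 UMIs.

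An Acta1 UMI was found in 62.9% of smooth-muscle-like nuclei, and in 25.0% of urothelial-like, 28.5% of fibroblast-like and 32.4% of macrophage-like nuclei. Such cells are not known for muscle actins, and where those UMIs came from was not tested. After each nucleus was thinned to 500 UMIs, Acta1 was found in 43.2% of smooth-muscle-like and 14.5% of other nuclei, Actc1 in 6.91% and 1.76%, and Pcp4 in 16.7% and 6.35%. Set against Myh11, Acta1 had 14.3 UMIs per 100 Myh11 UMIs (13.7 to 14.9) in smooth-muscle-like nuclei and 18.3 (16.8 to 19.8) in the others. Pcp4 had 3.50 per 100 Myh11 UMIs in smooth-muscle-like nuclei and 7.70 in the others, and Actc1 1.37 and 2.11. Relative to Myh11, the members were thus no lower outside the smooth-muscle-like clusters than inside them.

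The 3 smooth-muscle-like clusters of nuclei differed in level but less in that ratio. A cluster of 479 nuclei led by Rbm24, Pthlh and Flnc had the highest levels, with Acta1 at 2553 CPM, Actc1 at 270.7 CPM and Pcp4 at 742.9 CPM. Clusters of 487 nuclei (led by Gm45159, Nmrk2 and Fosb) and 424 nuclei (led by Gm45159, Rbm24 and Lrrc7) had Acta1 at 1111 and 872.4 CPM. Per 100 Myh11 UMIs the 3 clusters had 14.1, 15.1 and 13.1 Acta1 UMIs and 4.10, 2.57 and 3.78 Pcp4 UMIs. Of the 874 nuclei with Acta1, 869 had Myh11, 833 Des and 208 Ckm. These numbers show little of Acta1 itself, since Myh11 was in 1379 of all 1390 nuclei, Des in 1283 and Ckm in 280. Myh4 had 0 UMIs. Over the 1390 nuclei, r of log-normalised counts was 0.19 for Acta1 with Myh11, 0.24 with Des, 0.14 with Ckm and 0.19 with Pcp4. Within the clusters of 479, 487 and 424 nuclei, r of Acta1 was 0.03, 0.04 and 0.06 with Myh11. With Des it was 0.06, 0.16 and 0.08, with Ckm 0.11, 0.04 and 0.04, and with Pcp4 0.12, 0.17 and 0.10. All these values come from 1 library with few UMIs a nucleus and are weak.

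The ratios were larger in the detrusor-only cells than in nuclei, with 1 library of each. One cluster of 218 cells, led by Acta2, Tnnt2, Tagln and Rbm24, held 4005 of 4741 Acta1 UMIs, 420 of 550 Actc1 UMIs and 4367 of 5364 Pcp4 UMIs of the library. Acta1 stood there at 1394 CPM (1351 to 1438), 78.6 times the level of all other cells (17.7 CPM). Actc1 stood at 146.2 CPM (132.5 to 160.9), 46.7 times the level of other cells (3.13 CPM). Pcp4 stood at 1520 CPM (1475 to 1566), 63.3 times that of other cells (24.0 CPM). The cluster's median depth was 14125 UMIs against 7769.5 in the others. With every cell thinned to 500 UMIs, which weights cells alike, the contrast was smaller: Acta1 stood at 892.9 CPM (716.1 to 1100) against 32.7 CPM (25.9 to 40.6) and Pcp4 at 1400 against 41.1 CPM. Actc1 kept only 9 and 5 UMIs. Ckm was at 381.2 CPM in the cluster, and Myh4 had 0 UMIs in its 218 cells. Over the skeletal muscle list, 5 of 16 genes were at 0 there and the sum was 440.0 CPM, most of it Ckm.

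High levels of smooth muscle genes did not always come with high Acta1, while Pcp4 lay in between. A second detrusor-only cluster of 210 cells, led by Pln, Dgkb and Rgs5 and counted as pericyte-like, had Myh11 at 4843 CPM and Acta2 at 14270 CPM. It had Acta1 at 23.6 CPM, Actc1 at 13.3 CPM, Pcp4 at 113.4 CPM, Ckm at 3.03 CPM and Actg2 at 344.4 CPM. Pcp4 was thus above its level of 24.0 CPM in all cells outside the 218-cell cluster, and Acta1 was not far from its own level of 17.7 CPM. Per 100 Myh11 UMIs, Acta1 stood at 0.488 (0.347 to 0.668) there and 16.7 (16.2 to 17.3) in the 218-cell cluster. Pcp4 stood at 2.34 against 18.2, Actc1 at 0.275 against 1.75 and Ckm at 0.0626 against 4.57 per 100 Myh11 UMIs. Another cluster with Myh11, of 165 cells led by Rgs5, Vtn and Notch3, had Acta1 at 27.5 CPM and Pcp4 at 24.2 CPM. Its Actc1 level of 35.2 CPM rested on 32 UMIs, 27 of them in 1 cell. In fibroblast-like cells Acta1 stood at 14.7 and Pcp4 at 16.8 per 100 Myh11 UMIs, near the values of the 218-cell cluster, at an Acta1 level of 16.5 CPM.

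The detrusor-enriched library split in the same manner. Its 111-cell cluster led by Pln, Sncg and Dgkb passed as smooth-muscle-like and had Myh11 at 6429 CPM, Acta1 at 4.41 CPM (5 UMIs), Pcp4 at 77.7 CPM and Actg2 at 525.3 CPM, where the library's other cells stood at 7.46 CPM for Acta1 and 4.61 CPM for Pcp4. Its 56-cell cluster led by Ptprz1, Tcap and Tnnt2 had Myh11 at 7802 CPM, Acta1 at 184.5 CPM (136.5 to 243.9), Pcp4 at 327.6 CPM, Ckm at 218.4 CPM and Actg2 at 7000 CPM. Actc1 had 0 UMIs in those 56 cells, whose median depth was 1445 UMIs. Over both clusters together Acta1 was 5.18 times the level of other cells (3.81 to 6.92), and 24.7 times with the 56-cell cluster alone. After thinning, the intervals of Acta1 overlapped, at 78.4 CPM (28.8 to 170.6, 6 UMIs) against 35.4 CPM (28.3 to 43.8), while those of Pcp4 did not, at 182.9 CPM (99.98 to 306.8) against 22.8 CPM (17.1 to 29.7). Unnamed clusters of 1126 shallow cells (median 564 UMIs) had Acta1 at 111.8 CPM (88.9 to 138.7), above the 38.6 CPM of both smooth-muscle-like clusters together. The plot against Myh11 places both Pln-led clusters far under the other muscle clusters for Acta1.

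**Figure D3:**
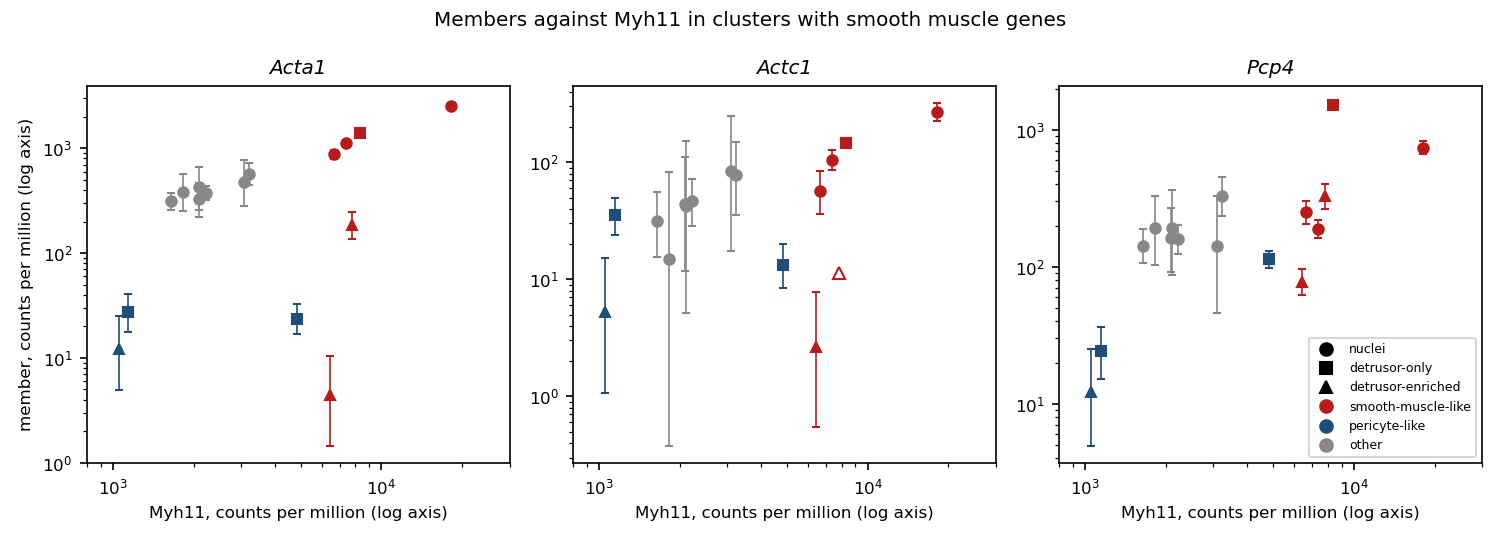
Acta1, Actc1 and Pcp4 against Myh11 (CPM, log axes) in clusters whose summed smooth muscle list reached 10000 CPM in nuclei (circles), detrusor-only (squares) and detrusor-enriched cells (triangles), with smooth-muscle-like clusters red, pericyte-like blue and other classes grey; bars are exact 95% intervals and the open symbol is 0 UMIs drawn at 3 counts. Acta1 is 1394 CPM at 8334 CPM of Myh11 in a detrusor-only cluster and 4.41 CPM at 6429 CPM of Myh11 in a detrusor-enriched one.

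Within the 218 detrusor cells, the members were not spread like Myh11. The 22 cells highest in a gene held 77.2% of Acta1 UMIs, 97.1% of Actc1 UMIs and 48.9% of Pcp4 UMIs. The same share was 41.1% for Ckm, 34.5% for Tnnt2, 29.96% for Myh11 and 29.7% for Des. Acta1 was at 0 in 102 cells, at 1 to 9 UMIs in 66, at 10 to 49 in 24 and at 50 or more in 26, with a highest cell of 284. Cells with 0 Acta1 UMIs had a median of 11351.5 UMIs and 45 Myh11 UMIs, and cells with 10 or more had medians of 19042.5 and 176.5, so depth differed along with Acta1. Among the 150 cells with at least 10000 UMIs, Acta1 was still found in 62.7% (54.4 to 70.4), Actc1 in 19.3% and Pcp4 in 72.7%, against 82.0% for Ckm and 98.0% for Tnnt2. In the Pln-led detrusor-only cluster, 3 of 36 cells of that depth had an Acta1 UMI, 3 an Actc1 UMI and 12 a Pcp4 UMI.

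Acta1 and Pcp4 had a higher r with Ckm than with Myh11 among those cells. Over the 218 cells, r of log-normalised counts was 0.46 for Acta1 with Ckm, 0.35 with Pcp4, 0.16 with Myh11 and 0.15 with Des. For Pcp4 it was 0.58 with Ckm, 0.19 with Myh11 and 0.21 with Des, and for Actc1 0.25 with Ckm, 0.23 with Acta1, 0.22 with Myh11, 0.11 with Pcp4 and 0.08 with Des. Over all smooth-muscle-like nuclei the order was another, with r of Pcp4 at 0.11 with Ckm, 0.17 with Myh11 and 0.18 with Des. Those nuclei pool 3 clusters, and the order did not hold within them. For the clusters of 487, 479 and 424 nuclei, r of Pcp4 was 0.12, 0.02 and 0.01 with Ckm. It was 0.08, 0.05 and -0.02 with Myh11, and 0.12, -0.0006 and 0.04 with Des. In the 167 smooth-muscle-like detrusor-enriched cells it was 0.05, -0.20 and 0.04. For Acta1 in those 167 cells it was 0.32 with Ckm, -0.01 with Myh11 and 0.18 with Des, with an Acta1 UMI in 15 cells. Those cells pool the unlike clusters of 111 and 56 cells, and the values differed within them. In the 111 cells, r with Ckm, Myh11 and Des was -0.03, -0.02 and 0.06 for Acta1 and -0.06, 0.03 and 0.04 for Pcp4. In the 56 cells it was 0.25, 0.12 and 0.14 for Acta1 and -0.01, -0.23 and -0.02 for Pcp4. An Acta1 UMI was found in 5 of the 111 and 10 of the 56 cells. The cells of each set share a library and differ in depth, and these differences between correlations were not tested.

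**Figure D4:**
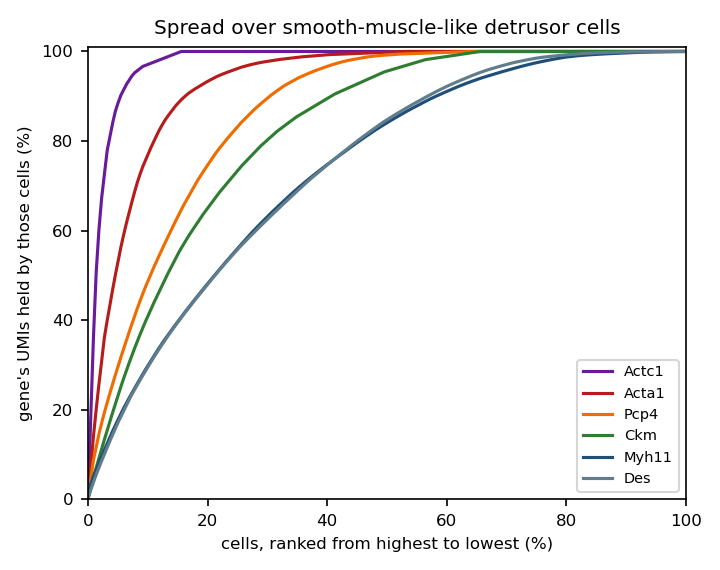
Share of each gene's UMIs (%) held by the 218 smooth-muscle-like detrusor-only cells, ranked from highest to lowest for that gene (% of cells). The curves of Actc1 and Acta1 climb first, with 97.1% and 77.2% of UMIs in the first 22 cells, and those of Myh11 and Des last.

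Whole-bladder cells held few such cells. In the first 12-month library, all 102 Acta1 UMIs and all 16 Actc1 UMIs of its 13 smooth-muscle-like cells were in 1 cell, and 38 of 40 Pcp4 UMIs were in 1 cell. In the 24-month library, 13 of 14 Acta1 UMIs of 20 such cells were in 1 cell and 69 of 94 Pcp4 UMIs in 1 cell. Levels of these genes in those clusters thus rest on very few cells.

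In the sections, the 3 genes rose with the smooth muscle list from spot to spot. Spots are small regions that can hold several cells, and they were put in 5 equal groups by the summed list of 11 smooth muscle genes. For Acta1, the highest group stood at 2128, 600.9, 1480 and 2740 CPM in the first and second 22-month and first and second 14-month sections, and the lowest group at 43.7, 11.2, 51.1 and 59.6 CPM. The ratio of highest to lowest was 48.7, 53.8, 28.9 and 46.0 for Acta1. It was 33.2, 60.6, 60.0 and 29.2 for Actc1, and 33.6, 25.9, 12.4 and 28.0 for Pcp4. Acta1 and Actc1 were higher from each group to the next in all 4 sections. Pcp4 did so in 3, and in the first 14-month section it was highest in the middle group, at 368.0 CPM against 301.9 CPM in the highest. Spots of the lowest group were deeper, with medians of 38059 to 58414.5 UMIs against 10615 to 15088 in the highest.

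The same ratio is given for other genes. It was 20.9 to 42.9 for Myh11, 27.4 to 44.1 for Des and 36.0 to 52.0 for Actg2. These 3 genes belong to the list that ordered the spots, so their high ratios follow from the ordering. Outside the list, the ratio was 25.5 to 43.4 for Ckm. It was 2.92 to 4.41 for Actb and 0.656 to 1.19 for Actg1. Skeletal genes other than Ckm went in both directions. Tnni2 had a ratio of 0.154 to 0.375 and Tnnt3 of 3.42 to 12.3, and the others had too few UMIs for one. By CPM, Myh2 (481 UMIs in the highest groups against 30 in the lowest, which were deeper), Tnnc2 (31 against 8), Casq1 (25 against 6) and Actn3 (40 against 56) were higher in the highest group in 4 of 4 sections. Myh1 (24 against 1 UMIs) and Ryr1 (16 against 34) were so in 3 sections. Mylpf (20 against 86), Myl1 (2 against 5) and Cacna1s (5 against 24) were so in 2. Atp2a1 (1 against 17), Neb (2 against 28) and Pvalb (0 against 1) were so in 0. The first 14-month section held 559 Myh2 UMIs over all its spots, against 79 and 185 in the 22-month sections and 34 in the second 14-month section. Myh4 had 1, 1, 3 and 0 UMIs in the 4 sections, and the skeletal regulators Myod1, Myog and Myf5 had 0 and Myf6 had 1 in the highest and lowest groups of spots. Of the neuron markers, Uchl1 had a ratio of 0.103 to 0.152 and Stmn2 of 1.40 to 3.47, under that of Pcp4. Uchl1 had 2068 UMIs in the highest and 61827 in the lowest groups, far more than Stmn2 (112 against 218) or any other listed neuron gene. Whether Uchl1 marks neurons in these spots was not tested. The other neuron genes had too few UMIs for a ratio; by CPM, Tubb3 (22 against 9 UMIs) was higher in the highest group in 4 of 4 sections, Prph (25 against 47) and Nefm (9 against 3) in 3, Snap25 (2 against 17) in 1 and Syt1 (2 against 31) in 0. The part of neurons in the Pcp4 values was not tested. For the calmodulin pathway, Mylk, which is also in the list that ordered the spots, had a ratio of 13.1 to 21.9. Pcp4l1, a relative of Pcp4 outside that list, had a ratio of 13.9 to 21.1.

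**Figure D5:**
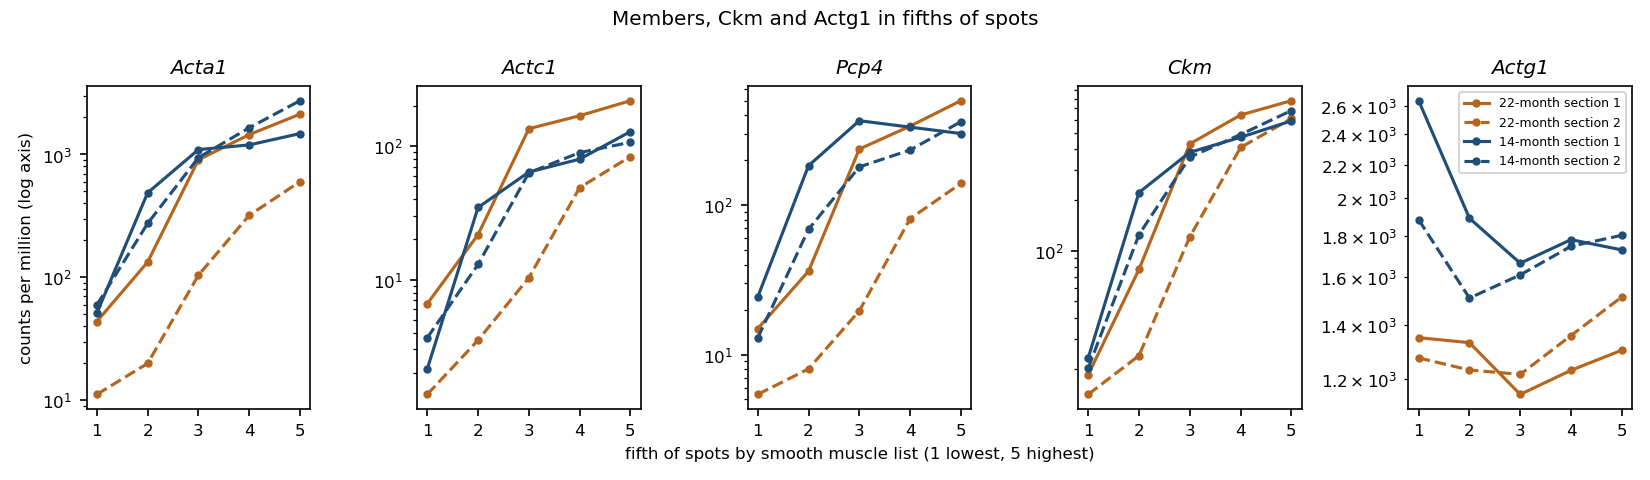
Level (CPM, log axis) of Acta1, Actc1, Pcp4, Ckm and Actg1 in 5 equal groups of spots ordered by the smooth muscle list, 1 line per section (brown 22 months, blue 14 months). Members and Ckm are far higher in the highest group than in the lowest and Actg1 is not. In the first 14-month section Pcp4 is highest in the middle group. The second 22-month section lies lowest for the members.

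By correlation over spots, the genes most like Acta1 among 10587 genes were Tpm2, Myl6, Acta2, Actg2 and Csrp1. Their mean r over the sections was 0.82 to 0.84. Myh11 came 6th, Des 18th, Ckm 24th, Pcp4 57th and Actc1 200th. The genes most like Actc1 were Pdlim3, Acta1, Actg2, Tpm2 and Myl6, with a mean r of 0.44 to 0.45. The genes most like Pcp4 were Acta1, Mylk, Myl6, Tpm2 and Myh11, with a mean r of 0.62 to 0.66. Spots of a section share a library and differ in depth, so these values describe 4 sections and carry no test. For Acta1, r was 0.71 to 0.88 with Myh11 and 0.66 to 0.84 with Ckm, but -0.72 to -0.51 with the urothelial gene Upk1b and -0.64 to -0.47 with the pericyte gene Rgs5.

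Spots without a Ckm UMI also held the members. Across the 4 sections, 190, 381, 89 and 179 spots had no Ckm UMI. Acta1 stood there at 61.9, 22.9, 132.5 and 112.3 CPM, against 668.1, 203.3, 611.8 and 853.0 CPM in spots with one. Actc1 stood at 2.96 to 9.15 CPM without and 28.4 to 79.9 CPM with a Ckm UMI, and Pcp4 at 9.003 to 52.0 CPM and 48.3 to 176.0 CPM. Myh11 was lower in spots without Ckm as well, at 264.5 to 450.1 CPM against 1533 to 2300 CPM. When only spots without a Ckm or Myh4 UMI were put in 5 groups, the highest group held Acta1 at 250.7, 209.6, 1367 and 872.1 CPM, 5.87, 21.0, 23.7 and 16.4 times the lowest. Its Pcp4 level was 72.6, 88.0, 443.7 and 187.8 CPM. Over all spots, the highest group held Acta1 at 2128, 600.9, 1480 and 2740 CPM. The Acta1 level without Ckm spots was thus lower in each section. It was nearest in the first 14-month section, which had the fewest spots without Ckm. Pcp4 stood at 501.0, 139.9, 301.9 and 362.1 CPM in the highest group over all spots. Its level without Ckm spots was thus higher in the first 14-month section and lower in the others. The 3 spots with a Myh4 UMI in the first 14-month section held 50 Acta1 UMIs and 151 Myh11 UMIs.

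The age of the mice was compared in the sections and in whole-bladder cells, since these contrasts were not used to choose the genes. In sections no member passed the test between 22 and 14 months, and the 22-month sections differed from each other. Acta1 stood at 524.4 and 136.5 CPM at 22 months and 551.1 and 696.6 CPM at 14 months. Both 22-month values were lower, as for 32.8% of the 14995 genes tested (18.4% had both higher), and the fitted difference was -0.87 on the log2 scale with an SE of 0.77 (adjusted p = 0.633, edgeR). Actc1 stood at 63.1 and 19.0 CPM at 22 months and 39.0 and 34.7 CPM at 14 months, with overlapping groups (fitted difference 0.21 on the log2 scale, SE 0.68, adjusted p = 0.906, edgeR). Pcp4 stood at 129.0 and 33.8 CPM at 22 months and 160.3 and 108.5 CPM at 14 months (-0.68, SE 0.82, adjusted p = 0.732, edgeR).

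Among 14995 genes, 0 passed (0%), while 2488 had an unadjusted p under 0.05 and DESeq2 called 426. Without the first 22-month section, Acta1 was lower at 22 months by 2.09 (adjusted p = 0.0103, edgeR) and Actc1 by 0.86 (adjusted p = 0.0395), and 300 genes were called. That fit leaves 1 section in the older group, which is assumed to vary like the others. The second 22-month section was the lowest of the 4 in each member and in Ckm (151.2 CPM, against 209.8 to 220.3 CPM in the others). Tnnt2 (153.2 CPM) and Acta2 (4362 CPM, against 4404 to 6024 CPM) were lowest there too. It was the highest of the 4 in Des (3160 CPM, against 1799 to 2883 CPM) and Actg2 (4528 CPM, against 1755 to 3260 CPM). Its Myh11 level of 1363 CPM lay within the range of the others (1265 to 1828 CPM). Per 100 Myh11 UMIs, Acta1 stood at 28.7 and 10.0 at 22 months and at 33.4 and 55.1 at 14 months. Pcp4 stood at 7.06 and 2.48, against 9.71 and 8.58, and Ckm at 12.1 and 11.1, against 13.2 and 16.6 per 100 Myh11 UMIs.

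In whole-bladder cells, older libraries (22 and 24 months) were compared with younger ones (3, 12 and 12 months), in a fit that also had a term for male-only against mixed pools. The male-only libraries also had shorter barcodes (14 against 16 bases) and less depth (deposited medians of 2524.5 and 1837 UMIs, against 9893 to 15042). The term cannot tell sex mix apart from these. Pcp4 stood at 4.64 and 4.21 CPM in the older and 0.727, 2.28 and 0.502 CPM in the younger libraries. Both older values were higher, as for 2.32% of the genes tested (2.76% had both lower), but the fitted difference, 1.88 on the log2 scale with an SE of 0.59, did not pass the test (adjusted p = 0.391, edgeR). Pcp4 rested on few cells, with a UMI in 33 and 41 cells of the older libraries and 9, 43 and 7 of the younger. In the 24-month library, 1 cell held 69 of the 135 Pcp4 UMIs. In the 22-month library, a small Rgs4-led cluster held Pcp4 far above the library's level, as given below. For Acta1 the fitted difference was -0.04 on the log2 scale with an SE of 1.21 (adjusted p = 0.995, edgeR), and Actc1 was too low to test. The first 12-month library had the highest Acta1 level (3.31 CPM), and 1 cell held 102 of its 119 Acta1 UMIs. Of 14780 genes, 0 passed (0%), while 1422 had an unadjusted p under 0.05 and DESeq2 called 224. Myh11 was at 45.5 and 11.6 CPM in the older and 3.265 to 5.999 CPM in the younger libraries, and did not pass the test either (log2 fold change 2.09, adjusted p = 0.329, edgeR). Actg1 stood at 5.54 and 7.675 CPM in both male libraries and 2303 to 2846 CPM in the others; the male tables list 27775 genes and the others 27998. Its part in the values of the other actins was not tested.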

How the data were processed

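The authors deposited read counts per gene symbol for bulk libraries and UMI counts for cells, nuclei and spots. The submitters' processing notes name mm10, bcl2fastq, Cell Ranger, Space Ranger, Subread and featureCounts; versions, strand handling and filters are not given in the sources used here. Near-identical actin genes can share reads, so actin counts depend on that step.

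Barcodes with at least 500 UMIs and, for cells and nuclei, at most 20% mitochondrial counts were kept. Predicted doublets (0.8% per 1000 barcodes) were removed from cells and nuclei. Clusters (scanpy 1.11.5, Leiden resolution 1) were built without the 3 genes and named from marker lists; some naming conditions were settled after the clusters were seen. Counts summed over bulk libraries, sections or whole-bladder libraries were fitted with edgeR 4.0.16 (robust quasi-likelihood, TMM, filterByExpr, two-sided, Benjamini-Hochberg threshold 0.05), tested on simulated data. SD and intervals describe libraries and counting error.

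Named genes were the members, Myh11, Des, Ckm, Myh4, the other actins, the 5 most alike over spots (log counts, UMI in at least 10% of spots of each section) and up to 3 per list with the largest fitted bulk change (adjusted p under 0.05, mean of at least 10 CPM). The members and lists were chosen with earlier results of these data known. Alternatives covered scaling, filters, DESeq2 1.42.0, depth, resolution, doublets and single libraries.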

Additional observations from a re-analysis of the deposited data

How the results depend on the processing

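The bulk fold changes of Acta1, Actc1 and Pcp4 kept their direction under every alternative run, within their main spread. Same-numbered bulk libraries did not deviate together throughout (correlations 0.295, 0.395 and -0.0517), so the numbers were not taken as pairs; a replicate block gave -5.13, -5.45 and -3.64 and 10118 called genes against 9798. Of called bulk genes, 47.2% were higher in dissociated bladder, and 38.3% when scaled by library size alone, which moved the median log2 fold change of all genes from -0.03 to -0.14.

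Called genes in sections (0) became 38 with library size alone, 426 with DESeq2 and 287 with no filter, and 0 to 300 when single sections were left out (300 without the first 22-month, 1 without the first and 18 without the second 14-month section). Over single sections left out, Actc1 ran from -0.86, a reversal without the first 22-month section, to 0.80. Called genes in whole-bladder cells (0) became 224 with DESeq2, 162 with no filter, and 0 to 235 when single libraries were left out (235 without the 24-month, 9 without the 3-month library and 1 each without the 22-month and first 12-month libraries). Acta1 reversed to 0.15 with DESeq2, and ran from -1.26 to 1.85 over single libraries left out (1.75 without the first 12-month and 1.85 without the 24-month library). In the first 12-month library 1 cell held most Acta1 UMIs. The cause of these changes was not tested.

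The log2 ratio of smooth-muscle-like to other nuclei was 2.69 for Acta1, and 2.98 at a minimum of 1000 UMIs, 2.45 at resolution 2 and 2.56 with doublets kept. For Pcp4 it was 1.91, and 2.13 at 1000 UMIs and 1.62 at resolution 2. In detrusor-only cells Acta1 went from 6.30 to 5.84 and Pcp4 from 5.98 to 5.78 at resolution 2. Without pericyte-like cells among the others, an alternative chosen after seeing the data, Actc1 went from 5.54 to 6.23 and Pcp4 to 6.23. In detrusor-enriched cells Pcp4 went from 4.76 to 5.17 at 1000 UMIs. With the Tcap-holding cluster alone, also chosen after seeing the data, Acta1 went from 2.37 to 4.63 and Pcp4 to 6.15; Actc1 has no value there at 0 UMIs.

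Over 5 groups of spots, the mean log2 ratio of highest to lowest was 5.43 for Acta1, 5.44 for Actc1 and 4.55 for Pcp4. With 3 groups it was 4.75 for Acta1 and 4.66 for Actc1. Without spots holding a Ckm or Myh4 UMI it was 3.89, 4.07 and 3.79; for Actc1 this rests on 5 to 12 UMIs in the highest and 1 to 8 in the lowest group of a section. Actc1 had 0 UMIs in 3 whole-bladder libraries, where it was not detectable at this depth.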

Other observations

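Tnnt2, cardiac troponin T, was high where Acta1 was high among the spots of a section and among the classes of nuclei and detrusor-only cells. Among the classes of detrusor-enriched cells this was not general. The unnamed class there was above the smooth-muscle-like class in Acta1. Its summed cardiac list, which includes Tnnt2, was lower, at 169.0 against 292.5 CPM. Of the 409 UMIs behind the latter, 341 were Tnnt2 in the 56-cell cluster. Between sections the order differed. Tnnt2 stood at 277.4 and 153.2 CPM at 22 months and 350.9 and 214.8 CPM at 14 months. Acta1 stood at 524.4, 136.5, 551.1 and 696.6 CPM in the same sections. In whole-bladder cells the picture was mixed. Tnnt2 stood at 5.03, 5.65 and 5.43 CPM in the 12-month and 24-month libraries, where Acta1 stood at 3.31, 0.251 and 0.842 CPM, and at 3.35 and 1.13 CPM in the 22-month and 3-month male libraries, where Acta1 stood at 2.19 and 0.646 CPM. In the sections the Tnnt2 level of the highest of 5 groups of spots was 28.0 to 43.5 times that of the lowest. Over all spots of a section Tnnt2 had 3354 to 8566 UMIs, while the cardiac genes Myh6 and Myl3 had 0. By CPM, the cardiac genes Myl7 (81 UMIs in the highest against 11 in the lowest groups of spots) and Ryr2 (106 against 19) were also higher in the highest group in 4 of 4 sections. Nppa (5 against 0) was so in 3. Tnni3 (19 against 96), Actn2 (21 against 163), Myh7 (1 against 18), Myl2 (1 against 4) and Mybpc3 (1 against 2) were so in 1. Besides Tnnt2, only Actn2 had enough UMIs for a ratio, which was 0.139 to 1.83. In the 218 smooth-muscle-like detrusor-only cells Tnnt2 stood at 1880 CPM (1830 to 1930) and was found in 86.7% of cells, against 23.6 CPM in the Pln-led cluster of 210 cells. Per 100 Myh11 UMIs it stood at 22.6 (21.9 to 23.2) in the former and 0.488 (0.347 to 0.668) in the latter. In nuclei it stood at 866.8 CPM in smooth-muscle-like and 146.9 CPM in other nuclei. Tnnt2 is also one of the leading genes of both detrusor clusters that hold Acta1, so its level there is a description.

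An unnamed cluster of 122 cells in the 22-month male whole-bladder library, led by Rgs4, Higd1b and Rgs5, held Acta1 at 80.5 CPM (17 UMIs, 13 of them in 1 cell), Pcp4 at 407.4 CPM and Ckm at 71.1 CPM.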
